A study of Mus musculus with 16 samples.

Results

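The genes described here are 41 genes of endoplasmic reticulum (ER) translocation, protein folding and the ER stress response, taken by symbol from an expression table of 24187 rows of mouse mammary gland. All 41 were found in the table, and each averaged 1 FPKM or more across the 7 RNA libraries, the level from which genes were tested. FPKM is by definition the number of reads on a gene divided by the gene's length and scaled to the size of the library. In the deposited values this scaling did not follow the recovered read totals exactly, as given with the processing below. The libraries came from whole mammary gland at day 13 of pregnancy, 3 from Socs2-Δs mice (Mut) and 4 from wild-type mice (WT), all labelled C57BL/6. Socs2-Δs is a mouse line made by CRISPR/Cas9 editing, and which bases it lacks is not stated in the labels. The WT animals were bought from a vendor, so genotype and origin of the animals cannot be told apart. The other 9 samples of the series, ChIP-seq and DNase-seq libraries, were not analysed here. Socs2 encodes a cytokine-induced protein that restrains signalling through STAT5, the transcription factor that drives milk protein genes and is named in the title of the series.

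Socs2 itself had 17.1, 13.9 and 16.0 FPKM in Mut glands, against 25.6, 22.1, 24.8 and 16.1 FPKM in WT glands. Its difference of -0.46 on the log2(FPKM + 1) scale did not pass the test across all genes (limma, adjusted p = 0.267), and WT replicate 4 lay among the Mut libraries. The genotype tag of the Mut RNA samples reads wild type, against their titles, which set the groups here. Nothing in the labels says that replicates came from separate animals, and the p-values then reflect only the spread between these libraries, which may be technical. Depth recovered from the values was 21.3 to 24.5 M (mega) reads per library, and a library held 95 to 17026 reads on any of the 41 genes. WT replicates 3 and 4 stood apart: on the first principal component over all tested genes, with 61.6% of the variance, they lay at 57.1 and 77.9, against -37.7 to -15.8 for the other 5 libraries. The limma comparison was made with all 7 libraries and again with WT replicates 1 and 2 as the only WT libraries. This split was set with earlier results of these data known. Exact permutation tests of single genes used all 7 libraries only.

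Secreted and membrane proteins enter the ER while they are being made. The signal recognition particle brings the ribosome to its receptor, the Sec61 channel lets the chain through, signal peptidase cuts off the signal peptide, and the oligosaccharyltransferase adds sugar chains. Chaperones and disulfide isomerases then fold the protein. When unfolded protein builds up, the sensors IRE1 (Ern1), PERK (Eif2ak3) and ATF6 start the unfolded protein response (UPR), which acts through the transcription factors XBP1, ATF4 and ATF6 and raises many of the genes above. In the mammary gland, secretory alveolar cells form during pregnancy and build an extensive ER for milk protein, a step for which Xbp1 is known to be needed in mice.

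None of the 41 genes passed the test between Mut and WT glands, either with all 7 libraries or with WT replicates 1 and 2 alone. The transcription factor Xbp1 was 1.78-fold and the PERK gene Eif2ak3 1.53-fold as high in Mut as in WT glands, and in both genes every Mut library lay above every WT library. The main chaperone Hspa5 (BiP) was at 0.926 of its WT mean in Mut glands, within the spread of the libraries. The median of the 41 genes lay lower in Mut glands when WT replicates 3 and 4 were included (-0.09 on the log2 scale) and higher when they were not (0.11), and quantile normalization of all 7 libraries also turned the median of the list, to 0.09. In bulk tissue, fewer cells of a type and less RNA per cell cannot be told apart.

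With all 7 libraries, limma called 6 of 13392 genes at an adjusted p under 0.05, which is 0.0448%, and 0 of the 41 ER genes. At an unadjusted p under 0.05, 3 ER genes were higher in Mut glands, 7.32% against 9.12% of all genes, and 0 were lower, against 8.98% of all genes. The median log2 difference of the 41 genes, Mut minus WT, was -0.09, against -0.00 over all genes tested, with 14 of the 41 higher in Mut glands. Groups did not overlap for 4 genes that were higher in Mut glands (Srpr, Sec61a1, Xbp1 and Eif2ak3), or 9.76%, against 12.5% of all genes. Only Stt3b lay lower in every Mut library than in every WT library, 2.44% against 10% of all genes. The shares without overlap in the list of 41 were thus below the shares over all genes.

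With WT replicates 1 and 2 alone, limma called 284 of 13276 genes, or 2.14% (1.42% that rose in Mut glands and 0.716% that fell), and again 0 of the 41. At an unadjusted p under 0.05, 8 ER genes were higher in Mut glands, 19.5% against 9.45% of all genes, and 0 were lower, against 10.7% of all genes. The median log2 difference of the 41 genes was 0.11, against 0.03 over all genes, and 31 of the 41 (75.6%) were higher in Mut glands, against 55.4% of all genes. Groups did not overlap for 12 genes that were higher in Mut glands, 29.3% against 22% of all genes, and again for 1 gene that was lower, Stt3b (2.44%, against 18.2% of all genes). With 1 library left out, the median of the 41 ran from 0.03 without WT replicate 1 (23 higher) to 0.23 without WT replicate 2 (38 higher). Without Mut replicate 3 it was 0.04, again with 23 of the 41 higher. Both comparisons use the same Mut libraries and share WT replicates 1 and 2, so they are not independent.

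**Figure D1:**
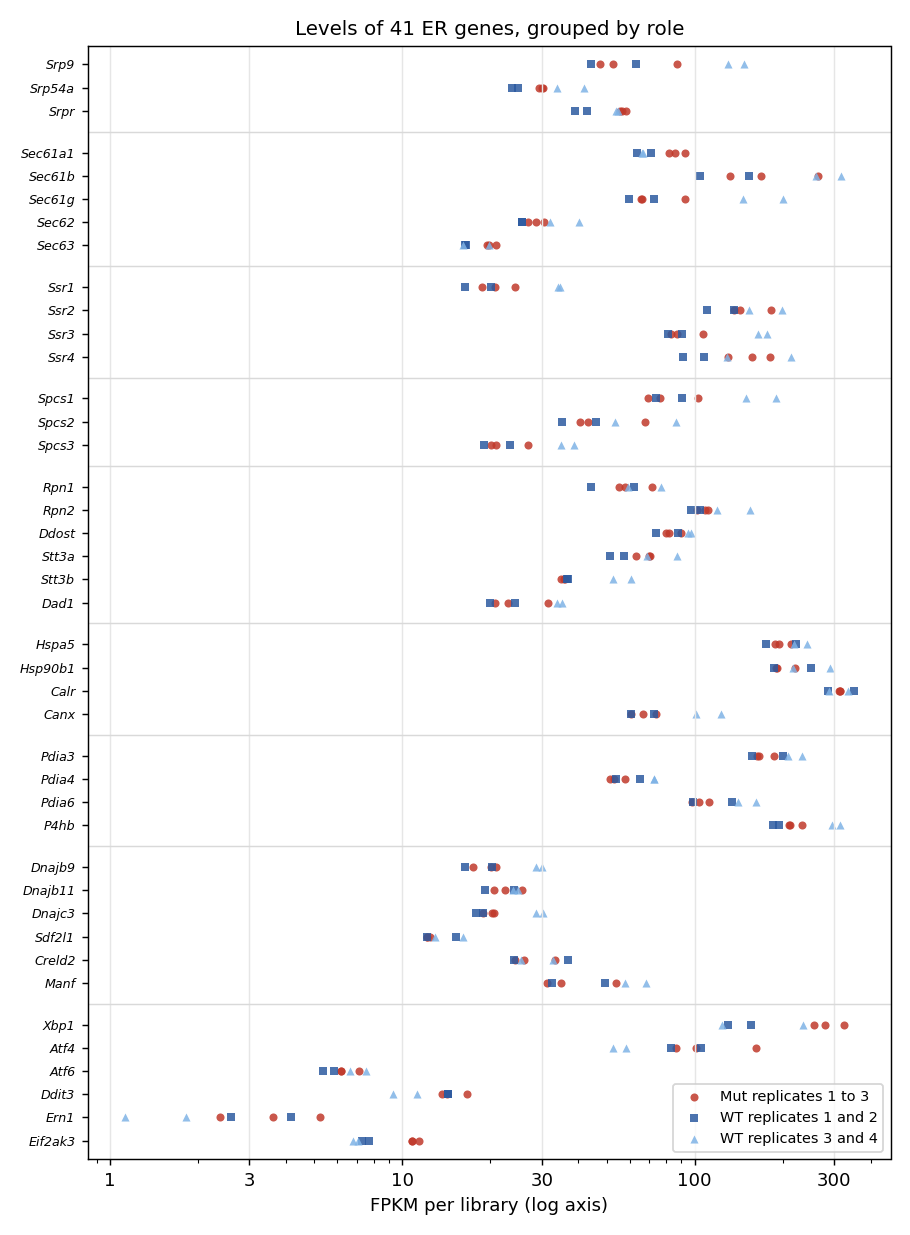
Level of each of the 41 ER genes in each of the 7 libraries, in FPKM on a log axis, with genes in rows grouped by role. Circles are Mut libraries, squares WT replicates 1 and 2, and triangles WT replicates 3 and 4; in 20 of the 41 genes both triangles lie to the right of the other 5 symbols, and Xbp1 and Eif2ak3 have all 3 circles to the right of every WT symbol.

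The 7 libraries differed in these genes along lines other than genotype. WT replicates 3 and 4 were both above all other 5 libraries in 20 of the 41 genes (48.8%), against 25.1% of all genes, and both below them in 4 genes (Atf4, Ddit3, Ern1 and Eif2ak3), against 25.2% of all genes. The median log2 ratio of these libraries over the other 5 was 0.35 for the 41 genes and 0.04 for all genes. Within the Mut group, replicate 3 was above replicates 1 and 2 in 33 of the 41 genes (80.5%), against 42.7% of all genes. Within the WT group, replicate 1 was the lowest library in 33 of the 41 genes (80.5%), against 29% of all genes. The range over the 7 libraries, highest over lowest, ran from 1.23-fold for Calr to 4.65-fold for Ern1. Summed over all rows, FPKM was 487096, 550556 and 618412 in Mut replicates 1 to 3. In WT replicates 1 to 4 the sum was 421374, 492933, 771273 and 636044. WT replicate 1 was thus lowest and WT replicate 3 highest in this sum too, and the part of library scale in these patterns was not tested.

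Summed markers of several cell types differed between the groups or in WT replicates 3 and 4, and their part in the differences below was not tested. The summed level of 8 alveolar secretory markers (caseins, Wap and others) was 59189, 73585 and 75649 FPKM in Mut glands, against 8931, 13655, 31899 and 3438 FPKM in WT glands. At an unadjusted p under 0.05 (limma), 8 of these 8 markers were higher in Mut glands in both comparisons. Over all genes the shares were 9.12% with all 7 libraries and 9.45% with WT replicates 1 and 2. At an adjusted p under 0.05, 0 of the 8 rose with all 7 libraries, against 0.0448% of all genes. With WT replicates 1 and 2, 6 rose, against 1.42% of all genes. None of the 8 markers was at 0 in any library. The sum of 7 general luminal markers was 1328 to 2013 FPKM in Mut glands and 742 to 1665 FPKM in WT glands, which overlapped. Adipocyte markers (7 genes) summed to 2835 to 4696 FPKM in Mut glands, against 8202 and 8324 FPKM in WT replicates 1 and 2 and 9499 and 19106 FPKM in WT replicates 3 and 4. Macrophage markers (6 of 7 found) summed to 63.1 to 87.3 FPKM in Mut glands and 98.4 to 176 FPKM in WT glands.

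Transcripts of other secretory tissues were highest in WT replicates 3 and 4, the libraries in which many ER genes were also highest. Hepatocyte markers (8 genes) summed to 59.2 to 87.7 FPKM in Mut glands and to 107 and 199.98 FPKM in WT replicates 2 and 1, against 367 and 2958 FPKM in WT replicates 3 and 4. Salivary gland markers (9 genes) summed to 34.4 to 42.5 FPKM in Mut glands and to 66.2 and 84.7 FPKM in WT replicates 2 and 1, against 356 and 229 FPKM in WT replicates 3 and 4. With WT replicates 1 and 2, 2 of these 9 markers reached the level for testing, and they went opposite ways. Car6 rose in Mut glands (log2 difference 1.63) and Amy1 fell (-1.15), with limma adjusted p of 0.0211 and 0.0361. Over all genes 1.42% rose and 0.716% fell. Plasma cell markers (7 genes) summed to 10.0 to 53.5 FPKM in Mut glands, to 21.1 and 59.9 FPKM in WT replicates 1 and 2, and to 118 and 100.4 FPKM in WT replicates 3 and 4. Of the hepatocyte markers Ttr and Ahsg, and of the salivary markers Smgc, Muc19, Bpifa2 and Dcpp2, were listed at 0 in at least 1 library, and no marker was at 0 in all of them. Basal epithelial markers (6 genes) summed to 752 to 908 FPKM in Mut glands and 456 to 880 FPKM in WT glands.

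Several of the ER genes carry in their promoters the ER stress response element (ERSE), through which ATF6 and XBP1 are known to act. It is a motif of CCAAT and CCACG with 9 bases of any kind between them. RefSeq promoter sequences of the build GRCm38.p6, from 250 bases before to 50 after the start of a gene, were found for 36 of the 41 genes (not for Atf6, Spcs3, Ssr2, Sec61a1 and Manf). ERSE, searched on both strands, was found in 7 of these 36 (19.4%), against 37 of 27025 genes (0.137%). In the sequences below, written in the direction of the gene, capitals mark the fixed letters of the motif, which reads CGTGG then ATTGG where it lies on the opposite strand.
Hspa5, chr2:34772010-34772058, plus strand: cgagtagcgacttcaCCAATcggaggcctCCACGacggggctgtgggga
Hsp90b1, chr10:86705623-86705671, minus strand: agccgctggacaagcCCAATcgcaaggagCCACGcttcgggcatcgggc
Hsp90b1, chr10:86705518-86705566, minus strand: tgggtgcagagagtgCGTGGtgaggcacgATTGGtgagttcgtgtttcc
Calr, chr8:84847060-84847108, minus strand: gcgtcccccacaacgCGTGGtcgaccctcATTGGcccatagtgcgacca
Canx, chr11:50325785-50325833, minus strand: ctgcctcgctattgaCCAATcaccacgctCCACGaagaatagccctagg
Pdia6, chr12:17266476-17266524, plus strand: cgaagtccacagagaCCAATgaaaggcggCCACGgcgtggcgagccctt
Dnajc3, chr14:118937812-118937860, plus strand: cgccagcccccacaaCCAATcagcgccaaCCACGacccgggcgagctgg
Creld2, chr15:88819505-88819553, plus strand: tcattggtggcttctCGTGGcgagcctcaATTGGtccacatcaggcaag
The motif lies close to the start of Hspa5, at -65 to -47 with the start at 0, and farthest from it in Hsp90b1, at -212 to -194. Hsp90b1 has a second copy at -107 to -89.

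The 7 genes with ERSE are chaperones, a disulfide isomerase and BiP partners, and none of them passed the test. Their median log2 difference, Mut minus WT, was -0.21 with all 7 libraries, where 1 of the 7 was higher in Mut glands, and -0.01 with WT replicates 1 and 2, where 3 were higher. The 29 genes with a promoter without ERSE had medians of -0.08 and 0.16, with 10 and 24 of them higher in Mut glands. These 29 include Dnajb9, Dnajb11 and Sdf2l1, which stress is also known to induce. The split therefore does not part UPR targets from other genes. The related motif ERSE-II, ATTGG and CCACG with 1 base of any kind between them, was found in Dnajb11 alone among the 36 (2.78%), against 0.0444% of all genes. The short core CCACG, which ERSE and ERSE-II contain, was present in 26 of 36 (72.2%), against 35.5% of all genes. The XBP1 motif TGACGTGG was found in 0 of 36, against 0.714% of all genes, and the ATF4-type motif ATTGCATCA in 0 of 36, against 0.222%. The STAT-type motif TTCNNNGAA, which STAT5 is known to bind, was found in Eif2ak3 and Sec61g, or 5.56% of the 36, against 9.55% of all genes. With all 7 libraries the groups did not overlap for Eif2ak3 but did for Sec61g. Srpr, Xbp1 and Stt3b, whose groups did not overlap either, had promoters without the motif, and Sec61a1 had no promoter sequence. Whether STAT5 acts at these genes was not tested. The Eif2ak3 match is shown with the fixed letters in capitals.
Eif2ak3, chr6:70844371-70844409, plus strand: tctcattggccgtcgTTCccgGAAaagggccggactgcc

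Transcripts of the UPR sensors and transcription factors are described first, because they hold the 2 genes with the smallest adjusted p of the 41. All 6 were higher in Mut glands in both comparisons, except that the Atf6 difference with all 7 libraries turned negative under 4 alternatives, to -0.10 with a length trend removed, to -0.02 under quantile normalization and to between -0.03 and -0.02 without Mut replicate 1 or WT replicate 2. With WT replicates 1 and 2, Ern1 turned to -0.13 without Mut replicate 1 and -0.17 without WT replicate 2, Ddit3 to -0.03 without Mut replicate 2 and Atf4 to -0.00 without Mut replicate 3. Their median log2 difference was 0.53 with all 7 libraries and 0.22 with WT replicates 1 and 2, and none passed the test. Averaged over the 6 genes, each library's deviation from the gene mean was 0.27, 0.25 and 0.29 on the log2 scale in Mut glands, against -0.07, -0.08, -0.32 and -0.35 in WT glands.

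Xbp1 encodes the transcription factor that IRE1 activates by splicing its messenger RNA, and the deposited values do not separate the spliced form. Xbp1 had 256, 279 and 325 FPKM in Mut glands, against 130.1, 156, 235 and 124 FPKM in WT glands. The lowest Mut library was thus above the highest WT library, WT replicate 3. The means were 287 ± 35.3 FPKM in Mut and 161 ± 51.2 FPKM in WT glands (SD, n = 3 and 4), a log2 difference of 0.87 ± 0.27 (SE; limma, adjusted p = 0.197). For Xbp1 alone, an exact permutation test gave a two-sided p of 0.0571, where 3 against 4 libraries allow no p below 0.0286. With WT replicates 1 and 2 alone the ratio was 2.003-fold and the log2 difference 1.00 ± 0.18 (SE; limma, adjusted p = 0.0546). The call of Xbp1 in this comparison depended on the settings: it passed in 6 of 13 alternatives, with adjusted p from 0.0129 under quantile normalization to 0.323, and in none of the 5 that left out 1 library. With all 7 libraries it passed in 0 of 16 alternatives, with log2 differences of 0.76 to 1.18.

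Eif2ak3 encodes PERK, the ER kinase that slows translation by phosphorylating eIF2α. Its levels were 11.4, 10.8 and 10.8 FPKM in Mut glands, against 7.67, 7.26, 6.78 and 7.07 FPKM in WT glands. Both groups were narrow, with 11.003 ± 0.366 FPKM in Mut and 7.19 ± 0.374 FPKM in WT glands (SD, n = 3 and 4), and WT replicates 3 and 4 lay close to WT replicates 1 and 2. The log2 difference was 0.55 ± 0.12 with all 7 libraries (SE; limma, adjusted p = 0.142) and 0.50 ± 0.10 with WT replicates 1 and 2 (adjusted p = 0.0616). Over all alternatives it stayed between 0.46 and 0.61, and it passed the threshold in 2 of 13 with WT replicates 1 and 2 and in 0 of 16 with all 7 libraries.

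Atf4 encodes the factor whose translation rises when eIF2α is phosphorylated. Its transcript was at 86.5, 101 and 162 FPKM in Mut glands, against 83.2, 105, 58.1 and 52.5 FPKM in WT glands. Mut replicate 3 was high and WT replicates 3 and 4 were low, while the other 4 libraries lay between 83.2 and 105 FPKM irrespective of genotype. The log2 difference was 0.64 ± 0.32 with all 7 libraries (SE; limma, adjusted p = 0.314; exact permutation p = 0.171) and 0.26 ± 0.29 with WT replicates 1 and 2 (adjusted p = 0.671).

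Ddit3, which encodes CHOP, a factor downstream of ATF4 linked to cell death, had 13.7, 16.6 and 14.2 FPKM in Mut glands, against 14.3, 14.3, 9.33 and 11.3 FPKM in WT glands. WT replicates 1 and 2 lay inside the Mut range and WT replicates 3 and 4 below it. The log2 difference was 0.27 ± 0.18 (SE; limma, adjusted p = 0.427; exact permutation p = 0.286), and 0.04 ± 0.12 with WT replicates 1 and 2. Ern1, the gene of IRE1, was the lowest of the 41, with 5.22, 3.61 and 2.37 FPKM in Mut glands, against 4.17, 2.59, 1.12 and 1.83 FPKM in WT glands. Its groups overlapped, and its spread within Mut glands was more than 2-fold. Atf6, a sensor that becomes a transcription factor when cut in the Golgi, had 7.12, 6.16 and 6.18 FPKM in Mut glands, against 5.83, 5.35, 6.64 and 7.49 FPKM in WT glands. Its log2 difference was 0.04 ± 0.15 with all 7 libraries and 0.18 ± 0.11 with WT replicates 1 and 2 (SE; limma, adjusted p = 0.903 and 0.428).

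**Figure D2:**
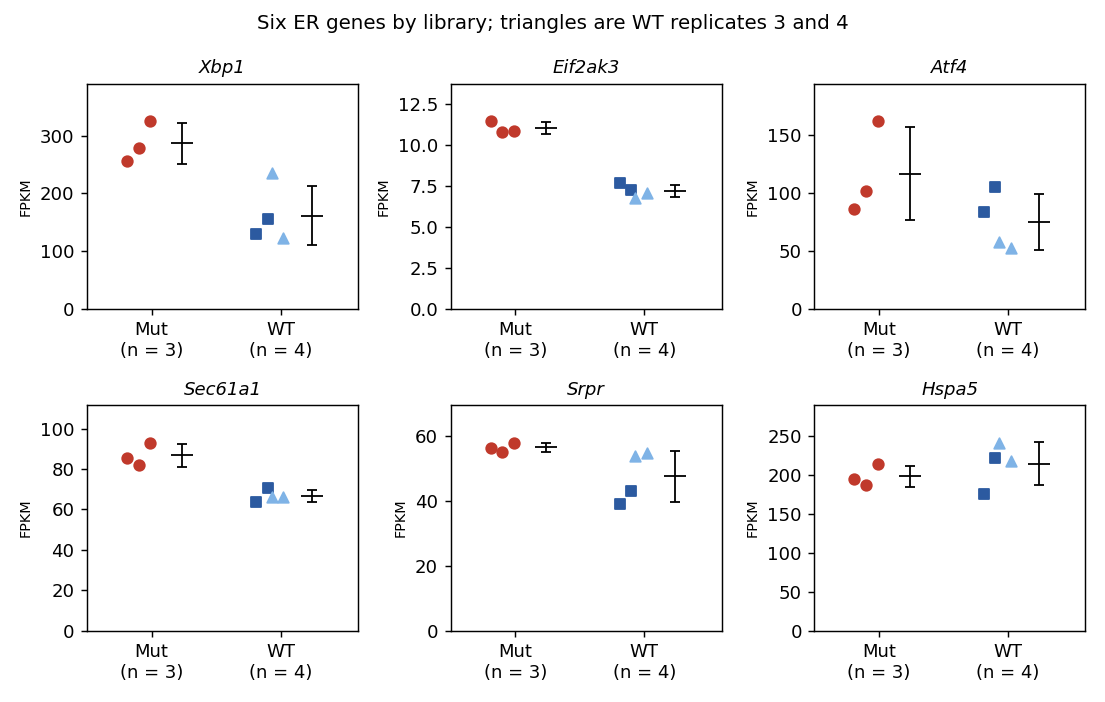
FPKM of Xbp1, Eif2ak3, Atf4, Sec61a1, Srpr and Hspa5 by library, with Mut libraries at the left of each panel and WT libraries at the right, each axis from 0; the bars beside the points are mean and SD (n = 3 and n = 4). Xbp1, Eif2ak3, Sec61a1 and Srpr have every Mut library above every WT library, whereas Hspa5 in Mut glands (188 to 214 FPKM) lies within the WT range of 176 to 241 FPKM.

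The signal recognition particle and its receptor were represented by 3 genes, with a median log2 difference of -0.02 with all 7 libraries (0.09 under quantile normalization) and 0.28 with WT replicates 1 and 2. Srpr, the receptor subunit that binds the particle, had 56.5, 55.3 and 58.0 FPKM in Mut glands, against 39.0, 43.0, 53.8 and 54.8 FPKM in WT glands. The Mut libraries were all higher, but the gap to WT replicate 4 was under 1 FPKM. The log2 difference was 0.26 ± 0.18 with all 7 libraries (SE; limma, adjusted p = 0.426) and 0.46 ± 0.11 with WT replicates 1 and 2 (adjusted p = 0.0957). Srp54a encodes the GTPase that grips the signal peptide. Srp54a had 30.1, 30.2 and 29.3 FPKM in Mut glands, against 23.8, 25.0, 41.8 and 33.7 FPKM in WT glands, so that the Mut libraries lay between the WT pairs. Its reads can be shared with the near-identical copies Srp54b and Srp54c, which makes its level uncertain. Srp9, part of the domain that pauses translation, ranged from 47.5 to 87.3 FPKM in Mut glands and from 44.1 to 147 FPKM in WT glands.

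The Sec61 channel and its partners comprised 5 genes, with median log2 differences of -0.07 with all 7 libraries (0.22 under quantile normalization) and 0.27 with WT replicates 1 and 2, where all 5 were higher in Mut glands. Sec61a1, which forms the pore, had 85.5, 81.7 and 92.9 FPKM in Mut glands, against 63.5, 70.6, 66.1 and 66.4 FPKM in WT glands. The groups did not overlap, and WT replicates 3 and 4 lay between the other WT libraries, unlike in most genes of the list. Means were 86.7 ± 5.67 FPKM in Mut and 66.7 ± 2.95 FPKM in WT glands (SD, n = 3 and 4), 1.30-fold higher in Mut glands. The log2 difference was 0.37 ± 0.15 with all 7 libraries and 0.37 ± 0.13 with WT replicates 1 and 2 (SE; limma, adjusted p = 0.262 and 0.188).

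The small channel subunits overlapped between the groups. Sec61b had 133, 169 and 263 FPKM in Mut glands, against 104, 153, 316 and 259.9 FPKM in WT glands. Sec61g had 65.8, 65.6 and 92.5 FPKM in Mut glands, against 59.4, 72.6, 199.9 and 146 FPKM in WT glands. Both were highest in WT replicate 3, and in both Mut replicate 3 was the highest Mut library. Log2 differences with all 7 libraries were -0.07 ± 0.43 for Sec61b and -0.52 ± 0.43 for Sec61g, and with WT replicates 1 and 2 they were 0.51 ± 0.33 and 0.16 ± 0.20 (SE; limma, adjusted p of 0.442 or more in all 4). Sec63, which brings BiP to the channel, had 19.5, 19.7 and 20.9 FPKM in Mut glands, against 16.4, 16.5, 19.7 and 16.1 FPKM in WT glands. Its groups touched only through WT replicate 3, and its log2 differences were 0.22 ± 0.14 with all 7 libraries and 0.27 ± 0.10 with WT replicates 1 and 2 (SE; limma, adjusted p = 0.399 and 0.197). Sec62, its partner in translocation, lay at 26.9 to 30.5 FPKM in Mut glands and at 25.7 to 40.2 FPKM in WT glands.

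The 4 genes of the translocon-associated protein (TRAP) complex, which sits beside the channel, had median log2 differences of -0.09 with all 7 libraries (0.12 under quantile normalization) and 0.26 with WT replicates 1 and 2, where all 4 were higher in Mut glands. Ssr4 had 130.3, 157 and 180.2 FPKM in Mut glands, against 90.9, 108, 213 and 129 FPKM in WT glands. All Mut libraries were above WT replicates 1, 2 and 4, and WT replicate 3 was the highest of all. Its log2 difference was 0.27 ± 0.31 with all 7 libraries (SE; limma, adjusted p = 0.618) and 0.64 ± 0.18 with WT replicates 1 and 2 (adjusted p = 0.133), where it passed the threshold in 2 of 13 alternatives. Ssr3 had 86.8, 83.0 and 107 FPKM in Mut glands, against 81.2, 90.5, 176 and 165 FPKM in WT glands. Ssr1 behaved alike, at 18.7 to 24.3 FPKM in Mut glands and 16.4 to 34.5 FPKM in WT glands, with WT replicates 3 and 4 above all other libraries in both genes. Ssr2 overlapped between groups, at 136 to 182 FPKM in Mut glands and 110.1 to 199 FPKM in WT glands.

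The signal peptidase subunits Spcs1, Spcs2 and Spcs3, which hold the catalytic subunit in place, had median log2 differences of -0.30 with all 7 libraries and 0.09 with WT replicates 1 and 2. Spcs1 had 69.1, 75.8 and 103 FPKM in Mut glands, against 73.4, 90.2, 189.9 and 149 FPKM in WT glands. Its log2 difference was -0.52 ± 0.35 with all 7 libraries and -0.00 ± 0.21 with WT replicates 1 and 2 (SE; limma, adjusted p = 0.414 and 0.999), so the whole difference came with WT replicates 3 and 4. Spcs2 ranged from 40.4 to 67.4 FPKM in Mut glands and from 35.03 to 86.6 FPKM in WT glands. Spcs3 ranged from 20.1 to 26.9 FPKM in Mut glands and from 19.0 to 38.8 FPKM in WT glands.

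The oligosaccharyltransferase, which transfers the sugar chain to the new protein, was represented by 6 subunits with median log2 differences of -0.10 with all 7 libraries (0.13 under quantile normalization) and 0.13 with WT replicates 1 and 2. The contrast between its 2 alternative catalytic subunits was not tested. Stt3a, which acts during translocation, had 70.0, 63.0 and 70.1 FPKM in Mut glands, against 51.3, 57.3, 87.1 and 68.6 FPKM in WT glands, and was above WT replicates 1 and 2 in every Mut library. The log2 difference of Stt3a was 0.06 ± 0.21 with all 7 libraries and 0.31 ± 0.12 with WT replicates 1 and 2 (SE, with limma adjusted p = 0.881 and 0.228). Stt3b, which acts on sites that were skipped, had 35.6, 34.9 and 36.0 FPKM in Mut glands, against 36.5, 37.0, 52.4 and 60.3 FPKM in WT glands. The gap that separated the Stt3b groups was under 1 FPKM, between Mut replicate 3 and WT replicate 1. Its log2 difference was -0.35 ± 0.21 with all 7 libraries and -0.05 ± 0.10 with WT replicates 1 and 2 (SE; limma, adjusted p = 0.381 and 0.836).

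The remaining subunits are structural or hold the substrate. Rpn1 lay at 54.9 to 71.3 FPKM in Mut glands and 44.3 to 76.5 FPKM in WT glands, and Dad1 at 20.7 to 31.5 FPKM in Mut glands and 19.95 to 35.1 FPKM in WT glands. Rpn2 lay at 102 to 111 FPKM in Mut glands and 96.7 to 155 FPKM in WT glands, and Ddost at 79.4 to 90.1 FPKM in Mut glands and 73.7 to 97.1 FPKM in WT glands. The log2 differences of these 4 genes lay between -0.15 and 0.04 with all 7 libraries and between 0.06 and 0.21 with WT replicates 1 and 2, in each case smaller than or close to their standard errors.

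The 4 chaperones had a median log2 difference of -0.16 with all 7 libraries (0.19 under quantile normalization) and -0.00 with WT replicates 1 and 2. Hspa5 encodes BiP, the ER chaperone that also holds the UPR sensors inactive, and is the usual readout of ER stress. Hspa5 had 195, 188 and 214 FPKM in Mut glands, against 176, 222, 241 and 219 FPKM in WT glands. The groups overlapped, and the means of 199 ± 13.4 FPKM in Mut and 214 ± 27.6 FPKM in WT glands (SD, n = 3 and 4) differed by less than the WT spread. The log2 difference was -0.10 ± 0.20 with all 7 libraries (SE; limma, adjusted p = 0.780; exact permutation p = 0.457) and 0.01 ± 0.17 with WT replicates 1 and 2 (adjusted p = 0.992). Over the alternatives with all 7 libraries it ranged from -0.19 to 0.24.

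Calr, encoding the sugar-binding chaperone calreticulin, had the narrowest range of the 41 genes. It was at 315, 312 and 313 FPKM in Mut glands, against 285, 351, 287 and 334 FPKM in WT glands, so the Mut libraries sat in the middle of the WT range. Its membrane-bound relative Canx had 66.5, 60.5 and 73.9 FPKM in Mut glands, against 60.7, 72.6, 123 and 101 FPKM in WT glands, and here WT replicates 3 and 4 were above the rest. Hsp90b1, the ER member of the HSP90 family, had 191, 189 and 219.9 FPKM in Mut glands, against 187, 249.7, 289.8 and 217 FPKM in WT glands. Its log2 differences of -0.22 ± 0.22 with all 7 libraries and -0.11 ± 0.18 with WT replicates 1 and 2 were close to or below their standard errors.

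The disulfide isomerases, which form and rearrange disulfide bonds, had a median log2 difference of -0.24 with all 7 libraries (0.03 under quantile normalization) and -0.09 with WT replicates 1 and 2. In all 4, WT replicates 3 and 4 were above the other 5 libraries. P4hb, the classical isomerase, had 211, 211 and 233 FPKM in Mut glands, against 185, 195, 295 and 314 FPKM in WT glands, and was the 1 gene of the 4 in which every Mut library lay above WT replicates 1 and 2. Pdia4 had 52.9, 51.2 and 57.5 FPKM in Mut glands, against 53.9, 64.8, 72.7 and 72.7 FPKM in WT glands. Its Mut replicate 3 overlapped WT replicate 1, and the log2 difference was -0.28 ± 0.17 (SE; limma, adjusted p = 0.382). Pdia3, which works with calreticulin and calnexin, lay at 163 to 187 FPKM in Mut glands and 157 to 234 FPKM in WT glands. Pdia6, which also acts on IRE1, lay at 98.2 to 111 FPKM in Mut glands and 98.8 to 163 FPKM in WT glands.

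The partners of BiP and other ER proteins that stress is known to induce were 6 genes, with median log2 differences of -0.20 with all 7 libraries and 0.02 with WT replicates 1 and 2 (-0.02 under quantile normalization). None of the 6 passed the test, which 0.0448% of all genes passed with all 7 libraries and 2.14% with WT replicates 1 and 2. Dnajb9, a BiP partner that represses IRE1, had 17.5, 20.1 and 20.9 FPKM in Mut glands, against 16.4, 20.2, 30.1 and 28.7 FPKM in WT glands. Dnajc3, an inhibitor of PERK, had 20.6, 18.8 and 20.2 FPKM in Mut glands, against 17.8, 18.8, 30.3 and 28.5 FPKM in WT glands. In both, all Mut libraries were below WT replicates 3 and 4; Dnajb9 overlapped WT replicates 1 and 2, and Dnajc3 lay just above them in every Mut library. Sdf2l1, which works with Dnajb11, had 12.2, 12.4 and 12.2 FPKM in Mut glands, against 12.1, 15.2, 12.9 and 16.2 FPKM in WT glands. The other members overlapped between groups: Dnajb11 lay at 20.6 to 25.7 FPKM in Mut glands and 19.1 to 24.9 FPKM in WT glands. Creld2 lay at 24.3 to 33.4 FPKM in Mut glands and 24.0 to 36.8 FPKM in WT glands. Manf, a secreted BiP-binding protein, lay at 31.2 to 53.8 FPKM in Mut glands and 32.4 to 68.0 FPKM in WT glands.

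**Figure D3:**
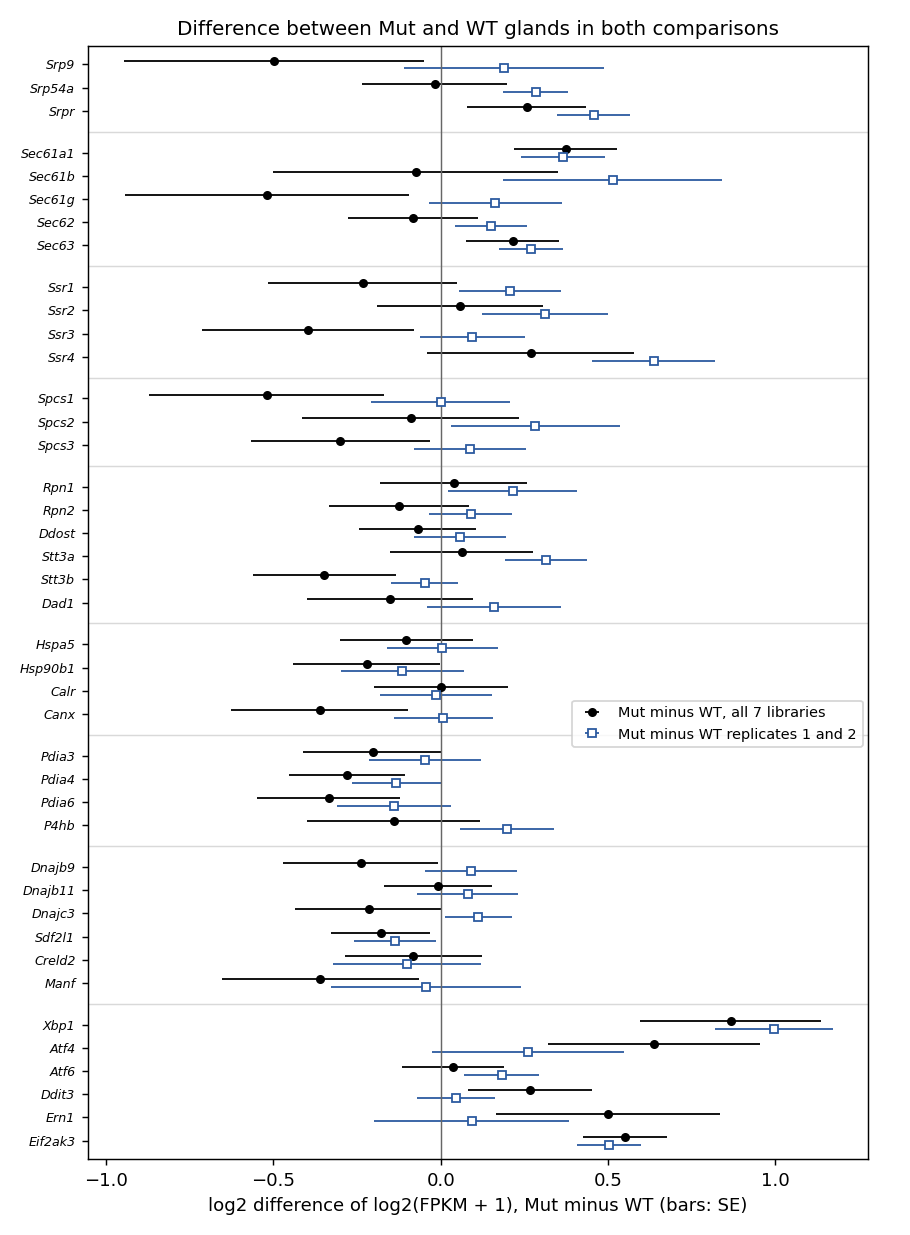
Log2 difference of each gene, Mut minus WT, on the log2(FPKM + 1) scale with its standard error, from all 7 libraries (filled circles) and with WT replicates 1 and 2 as the only WT libraries (open squares). The median moves from -0.09 with all 7 libraries to 0.11 with WT replicates 1 and 2, while Xbp1 (0.87 and 1.00), Eif2ak3 (0.55 and 0.50) and Sec61a1 (0.37 and 0.37) stay close.

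The comparison by role shows which libraries the differences rest on. In 8 of the 9 role groups WT replicate 3 was the highest library and WT replicate 1 the lowest, with the Mut libraries between them. For the TRAP complex the mean deviation was -0.17, -0.14 and 0.18 in Mut glands, against -0.48, -0.23, 0.57 and 0.27 in WT glands. For signal peptidase it was -0.39, -0.30 and 0.17 in Mut glands, against -0.46, -0.14, 0.75 and 0.36 in WT glands. The UPR sensors and transcription factors were the exception, with the 3 Mut libraries highest and WT replicates 3 and 4 lowest.

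**Figure D4:**
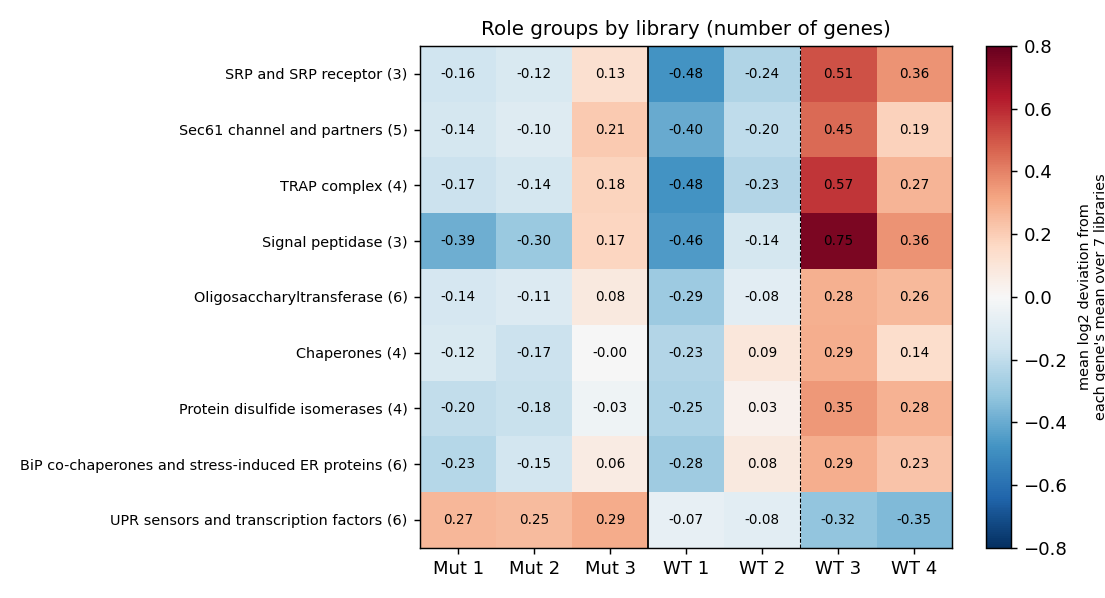
Mean log2 deviation of each role group in each library from the gene means over 7 libraries, on the log2(FPKM + 1) scale, with red above and blue below; the solid line parts Mut from WT libraries and the dashed line sets WT replicates 3 and 4 apart. The bottom row, UPR sensors and transcription factors, runs from 0.25 to 0.29 in Mut glands and from -0.35 to -0.07 in WT glands.

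The differences between libraries of 1 group moved with gene length, taken as the reads that 1 FPKM stands for, which ran from 12.3 for Sec61b to 208 for Ssr1. Across the 41 genes, the difference of Mut replicate 3 from Mut replicates 1 and 2 had a Spearman correlation of -0.41 and a Pearson correlation of -0.43 with this measure, against -0.39 and -0.28 over 13392 genes. The difference of WT replicate 2 from WT replicate 1 had correlations of -0.51 and -0.45 across the 41 genes, against -0.39 and -0.27 over all genes. In the short genes Sec61b and Srp9, Mut replicate 3 was at 1.75 and 1.74 of the mean of Mut replicates 1 and 2. Not all short genes had a ratio this high, and what set the ratio was not tested. It was 0.94 for Ddit3 and 0.99 for Sdf2l1, which are also short, and 0.54 for the longer Ern1. The difference of WT replicates 3 and 4 from the other 5 was less tied to length in these genes, with -0.06 and -0.14 across the 41, against -0.28 and -0.15 over all genes. Genes of 1 library share its depth and handling, so these correlations are descriptions. With a length trend removed from each library, a setting chosen after seeing the data, the median of the 41 was -0.13 with all 7 libraries and 0.12 with WT replicates 1 and 2.

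**Figure D5:**
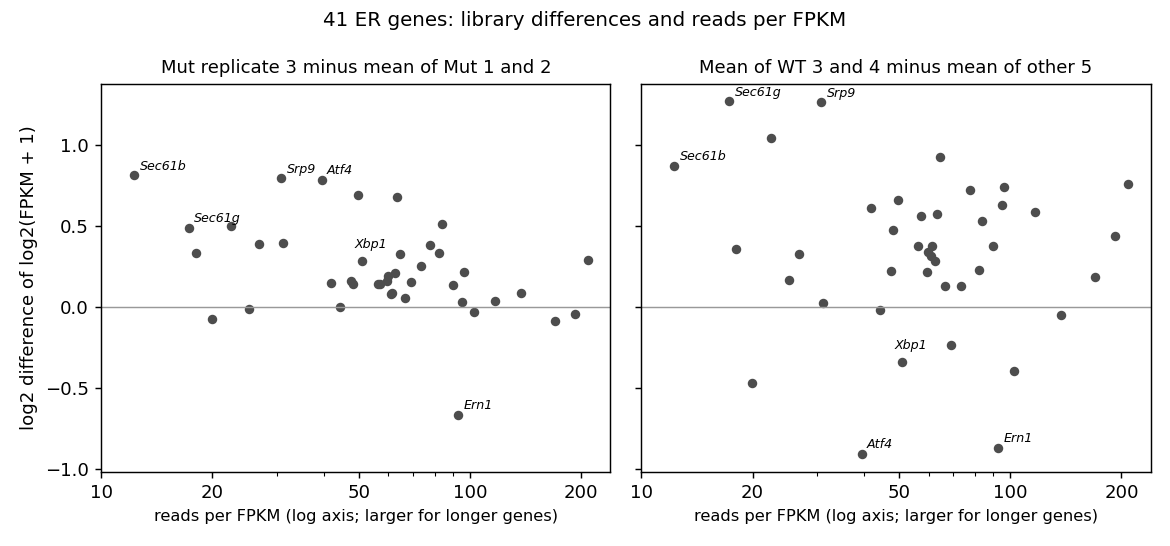
Log2 difference of each of the 41 genes on the log2(FPKM + 1) scale against reads per FPKM (log axis), for Mut replicate 3 minus the mean of Mut replicates 1 and 2 (left) and for the mean of WT replicates 3 and 4 minus the mean of the other 5 libraries (right). Points on the left slope down (Spearman correlation -0.41), and on the right most lie above 0 at all lengths (-0.06).

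Of 154 further genes of the same pathway, chosen by function, 151 were found and 146 were tested. With all 7 libraries 0 of them were called by limma. At an unadjusted p under 0.05, 8 (5.48%) were higher in Mut glands and 9 (6.16%) lower, against 9.12% and 8.98% of all genes. With WT replicates 1 and 2 alone, 21 (14.4%) were higher and 12 (8.22%) lower at this p, against 9.45% and 10.7% of all genes. In that comparison Qsox1 rose and Emc9 fell, 1.37% of the 146 genes called against 2.14% of all genes. Qsox1, an oxidase that makes disulfide bonds in secreted proteins, had 48.0, 44.9 and 51.3 FPKM in Mut glands, against 27.8, 28.2, 28.5 and 34.2 FPKM in WT glands. All Mut libraries were above all WT libraries, WT replicates 3 and 4 included, with log2 differences of 0.68 with all 7 libraries and 0.76 ± 0.11 with WT replicates 1 and 2 (SE; limma, adjusted p = 0.141 and 0.0371). Emc9, a subunit of the ER membrane complex, had 7.69, 9.89 and 9.14 FPKM in Mut glands, against 18.5, 15.8, 18.5 and 39.7 FPKM in WT glands, a log2 difference of -0.87 with WT replicates 1 and 2 (limma, adjusted p = 0.0428). Leaving out any 1 of the 5 libraries ended both calls, with adjusted p of 0.0802 to 0.251 for Qsox1 and 0.0920 to 0.272 for Emc9.

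The other pathway genes, by list, were as follows. Of 27 further targeting and translocation genes, the median log2 difference was -0.12 with all 7 libraries and 0.11 with WT replicates 1 and 2. Srp68 and Srp72, both subunits of the signal recognition particle, had log2 differences of 0.35 and 0.36 with WT replicates 1 and 2, and neither passed the test. For 28 further N-glycosylation genes the medians were 0.03 and 0.14, and Dolk, which makes the lipid carrier of the sugar chain, was lower in every Mut library, with a log2 difference of -0.78 with all 7 libraries that did not pass (limma, adjusted p = 0.226). Ganab, a glucosidase that trims the chain, had 70.3, 59.9 and 59.7 FPKM in Mut glands, against 50.4, 56.0, 43.2 and 49.6 FPKM in WT glands. It was higher in every Mut library, with a log2 difference of 0.34 (limma, adjusted p = 0.304). For 29 further folding genes the medians were -0.23 and -0.04, with the prolyl isomerases Fkbp7 and Fkbp9 lower in every Mut library (log2 differences of -0.66 and -0.64 with WT replicates 1 and 2; limma, adjusted p = 0.0559 and 0.0649). For 28 ER-associated degradation genes the medians were -0.08 and 0.04. Edem2, which trims sugars on misfolded proteins, had 32.3, 37.2 and 44.2 FPKM in Mut glands, against 23.4, 28.7, 22.0 and 20.8 FPKM in WT glands, without overlap and without passing (limma, adjusted p = 0.168). Derl1, part of the channel through which misfolded proteins leave the ER, went the other way, with 36.1, 34.6 and 39.9 FPKM in Mut glands, against 38.1, 45.9, 82.0 and 92.9 FPKM in WT glands. Its groups overlapped through WT replicate 1, and its log2 difference of -0.70 with all 7 libraries was -0.18 with WT replicates 1 and 2 (limma, adjusted p = 0.289 and 0.507).

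For 34 further genes of the UPR and the wider stress response to eIF2α phosphorylation, the medians were 0.08 with all 7 libraries and 0.04 with WT replicates 1 and 2. Creb3l1, an ER-anchored transcription factor of the ATF6 kind, had 25.7, 25.3 and 21.5 FPKM in Mut glands, against 13.9, 15.0, 9.18 and 14.6 FPKM in WT glands. All Mut libraries were higher, with log2 differences of 0.85 and 0.70 (limma, adjusted p = 0.151 with all 7 libraries and 0.0517 with WT replicates 1 and 2). Psat1, a serine synthesis enzyme that ATF4 is known to induce, had 21.0, 22.1 and 22.4 FPKM in Mut glands, against 31.3, 35.5, 55.2 and 70.2 FPKM in WT glands. Psat1 was thus lower in every Mut library, with log2 differences of -1.03 and -0.59 (limma, adjusted p = 0.168 and 0.0590). The Atf4 transcript itself overlapped between the groups. Genes of this list were named for their small p, so Psat1 does not stand for ATF4 targets in general. Trib3, another gene that ATF4 induces, lay at 4.57 to 5.27 FPKM in Mut glands and 3.08 to 4.76 FPKM in WT glands (log2 difference with WT replicates 1 and 2 of 0.49; limma, adjusted p = 0.0931). Traf2, which binds active IRE1, had 24.9, 23.0 and 25.5 FPKM in Mut glands, against 15.7, 19.1, 13.9 and 10.6 FPKM in WT glands, again without overlap and without passing (limma, adjusted p = 0.173).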

How the data were processed

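RNA was sequenced from 7 mammary gland libraries, which were grouped by title. Per the labels' protocols, poly(A) RNA and a TruSeq kit were used. Per the submitters' processing notes, DESeq2, STAR, Bowtie2 and CASAVA were used with the build mm9, with no version or role named. The authors deposited FPKM, in a table of 24187 rows. Annotation and counting strand were not given in the sources used here, so reads of a gene and of an overlapping or antisense partner are not separable.

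Depth was recovered from the steps between values, which gave whole reads for 21044 of 21044 rows above 0 (tolerance 0.02 of a read), up to a factor common to a gene. The FPKM do not come from equal library totals: reads times the worth of 1 read ran from 0.851 to 1.171 of the mean.

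Differences were tested with limma 3.58.1 in R 4.3.3 (mean-variance trend) on log2(FPKM + 1), a scale that understates changes of low genes, for genes averaging 1 FPKM or more, with Benjamini-Hochberg adjustment over all genes tested and a threshold of 0.05. The step was tested on simulated data. Alternatives were a pseudocount of 0.1, no filter or a mean of at least 5 FPKM, median-of-ratios or quantile scaling, a replicate block, no trend, a term for WT replicates 3 and 4, each library left out, and, added after seeing the data, removal of a length trend. Two-sided exact permutation tests were run for Hspa5, Xbp1, Atf4 and Ddit3.

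The members and lists were chosen with earlier results of these data known. All 41 members are named. Of each related list, the text draws on the 3 tested genes of smallest p in each comparison. Marker genes are given as sums, apart from Car6 and Amy1. Promoters came from RefSeq (GRCm38.p6), whose coordinates are not those of mm9.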

Additional observations from a re-analysis of the deposited data

Results flagged for a closer look

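Each of the 41 genes was examined for a WT library that stood far from the other 3, judged by the gap to its nearest neighbour divided by the range of the group, and compared with Dixon's critical value for 4 samples. Chance alone marks about 1 in 20 groups. Sec63 had 19.7 FPKM in WT replicate 3, against 16.1 to 16.5 FPKM in the other WT libraries, a gap of 0.881 of the range, and this library alone joined the WT range to that of Mut glands. Dnajb11 had 19.1 FPKM in WT replicate 1, against 23.9 to 24.9 FPKM in the other WT libraries, a gap of 0.831 of the range. Groups of 3 Mut libraries were not examined in this way.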

How the results depend on the processing

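No ER gene was called with all 7 libraries under any of 16 alternatives. The number of genes called there, 6, was 1 with a pseudocount of 0.1, 1 without a filter, 0 with a mean of at least 5 FPKM, 28 with quantile normalization, 0 with the replicate block, 0 with a term for WT replicates 3 and 4, and 0 to 31 with 1 library left out. The median of the ER genes, -0.0898, turned to 0.0901 with quantile normalization, where 12 of 41 changed sign, and was -0.21 to -0.03 with 1 library left out. It was 0.11 with the term for WT replicates 3 and 4. By construction this is the estimate of the comparison with WT replicates 1 and 2, so it is not a separate result. ER genes without overlap, 5, were 9 with quantile normalization and 5 to 10 with 1 library left out, the most without WT replicate 1. With WT replicates 1 and 2, the 284 genes called became 25 without a filter, 446 with the length trend removed, chosen after seeing the data, and 0 to 66 with 1 library left out; where that left 1 WT library, it was assumed to vary like the others. ER genes called, 0, became 2 with a mean of at least 5 FPKM, 1 with median-of-ratios scaling, 2 with quantile normalization, 1 without the trend, 3 with the length trend removed and 0 with any library left out, among Xbp1, Eif2ak3 and Ssr4. The 2 calls among related genes became 0 without a filter, 6 with a mean of at least 5 FPKM, 1 without the trend, 5 with the length trend removed and 0 with any library left out. The causes were not tested. Deviations of libraries with the same replicate number had correlations of 0.35, -0.10 and 0.28 with all 7 libraries. With WT replicates 1 and 2 the correlations were 0.44 and 0.02. Deviations within a group sum to 0, so these values cannot decide whether the numbers pair the libraries. With the replicate block the ER gene median was -0.06 with all 7 libraries and 0.04 with WT replicates 1 and 2. In the latter, 319 genes were called and 1 ER gene, Xbp1, while Qsox1 and Emc9 were not called. Ern1 has no value at a mean of at least 5 FPKM.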
